A study of Danio rerio with 6 samples.

Results

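Nodal ligands, their coreceptor, their Lefty inhibitors and 3 homeobox targets of the pathway were followed in cells of *drl:EGFP* zebrafish embryos at the 2 somite stage. The 8 genes are *ndr1*, *ndr2*, *lft1*, *lft2*, *tdgf1*, *gsc*, *mixl1* and *sebox*. They were chosen by gene symbol, and 6 of them are held by the arrays under those symbols, with 7 transcript clusters, each a set of probes for a gene or a part of one. The other 2 genes are held under older symbols, *tdgf1* as *oep* (one-eyed pinhead) and *mixl1* as *bon* (bonnie and clyde), and add 3 clusters. The members are thus 10 clusters of 75212 on the arrays, where 25965 symbols are represented.

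The homozygous *drl:EGFP* fish carry EGFP under a *draculin* (*drl*) regulatory element, a reporter of the early lateral plate mesoderm. Both fractions carried this transgene and differed only in the sort, since embryos were dissociated, dead cells that took up propidium iodide were left out, and the remaining cells were separated by whether they showed EGFP. The same family of fish was mated on 3 occasions, and pooled embryos gave 3 arrays of EGFP-positive and 3 of EGFP-negative cells. One-colour Affymetrix ZebGene arrays measured the RNA, and the values below are log2 signals. The EGFP-negative fraction is the remainder of the embryo, with every tissue in which the transgene was not on.

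Nodal signals belong to the TGF-beta family and bind activin receptors together with an EGF-CFC coreceptor. The receptors phosphorylate Smad2 and Smad3, which enter the nucleus with Smad4 and act on target genes with partners such as FoxH1 and Mix-type homeodomain proteins. In the blastula and gastrula the pathway induces mesoderm and endoderm at the margin, with high signal giving prechordal plate and endoderm, and it induces its own Lefty inhibitors. By somite stages most of this early expression has faded in zebrafish, and Nodal later returns in the left lateral plate mesoderm.

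The label of the sort was checked against marker genes. All 6 lateral plate mesoderm markers (*drl*, *hand2*, *tbx20*, *tal1*, *etv2* and *osr1*) were higher in EGFP-positive cells. Their summed linear signal ran from 361 to 565 in EGFP-negative and from 5484 to 7183 in EGFP-positive arrays. The cells were sorted on EGFP driven by the *drl* element, so *drl* itself is no independent check of the sort, and the sum includes it. Markers of other tissues moved with the sort as well. The 4 endoderm markers were all higher, with sums of 818 to 1251 against 5969 to 6737. They include *gata5*, which is also a gene of the heart, and *foxa2*, which is also listed under axial mesoderm, so this sum is not of endoderm alone. *cxcr4a*, an endoderm gene of the target list below, is not among these markers and did not pass. Of 6 prechordal plate and hatching gland markers 5 were higher, all but *klf17*, with sums of 2901 to 3518 against 8623 to 9635. These sums weigh *ctslb* most, which had the highest log2 signal of them (10.9 to 11.2 against 12.6 to 12.7). They include *foxa3*, which is also a gene of endoderm. Of 4 measured notochord markers 3 were lower (2674 to 2863 against 1646 to 1957), as were 4 of 4 measured neural plate markers (4794 to 5216 against 791 to 1151) and 4 of 4 epidermis markers (6283 to 7576 against 1886 to 2404). None of the 3 measured germ cell markers passed the test, with sums of 321 to 459 against 365 to 499. The part of these tissues in the results below was not tested. In sorted bulk RNA, fewer cells of a type and less RNA per cell cannot be told apart. Array medians ran from 5.02 to 5.10, and Pearson's r across clusters was 0.988 to 0.991 within and 0.978 to 0.987 between fractions.

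The comparison asks which genes of the pathway differed between EGFP-positive and EGFP-negative cells. Of the 8 genes, *gsc* was higher in EGFP-positive cells, *lft2* was lower, and the ligands *ndr1* and *ndr2*, the coreceptor *tdgf1*, the inhibitor *lft1* and the targets *mixl1* and *sebox* did not pass the test. A cluster was called with limma at a Benjamini-Hochberg adjusted p under 0.09 over all clusters, the false discovery rate of the study's methods. By this rule 2 of the 10 clusters were higher, both of *gsc*, and 1 was lower, while 2.96% of all clusters were higher and 1.84% lower. Shares of all clusters, here and below, count 14293 clusters that have the same 6 values as another. The median log2 difference, EGFP-positive minus EGFP-negative, was 0.13 over the 10 clusters and 0.017 over all clusters. With a gene represented by its cluster of highest mean signal, 1 of the 8 genes was higher and 1 lower, beside 4.12% and 3.49% of all genes. Replicates are separate collections, and the smallest p that an exact permutation test of 1 gene can give with 3 arrays against 3 is 0.1.

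**Figure D1:**
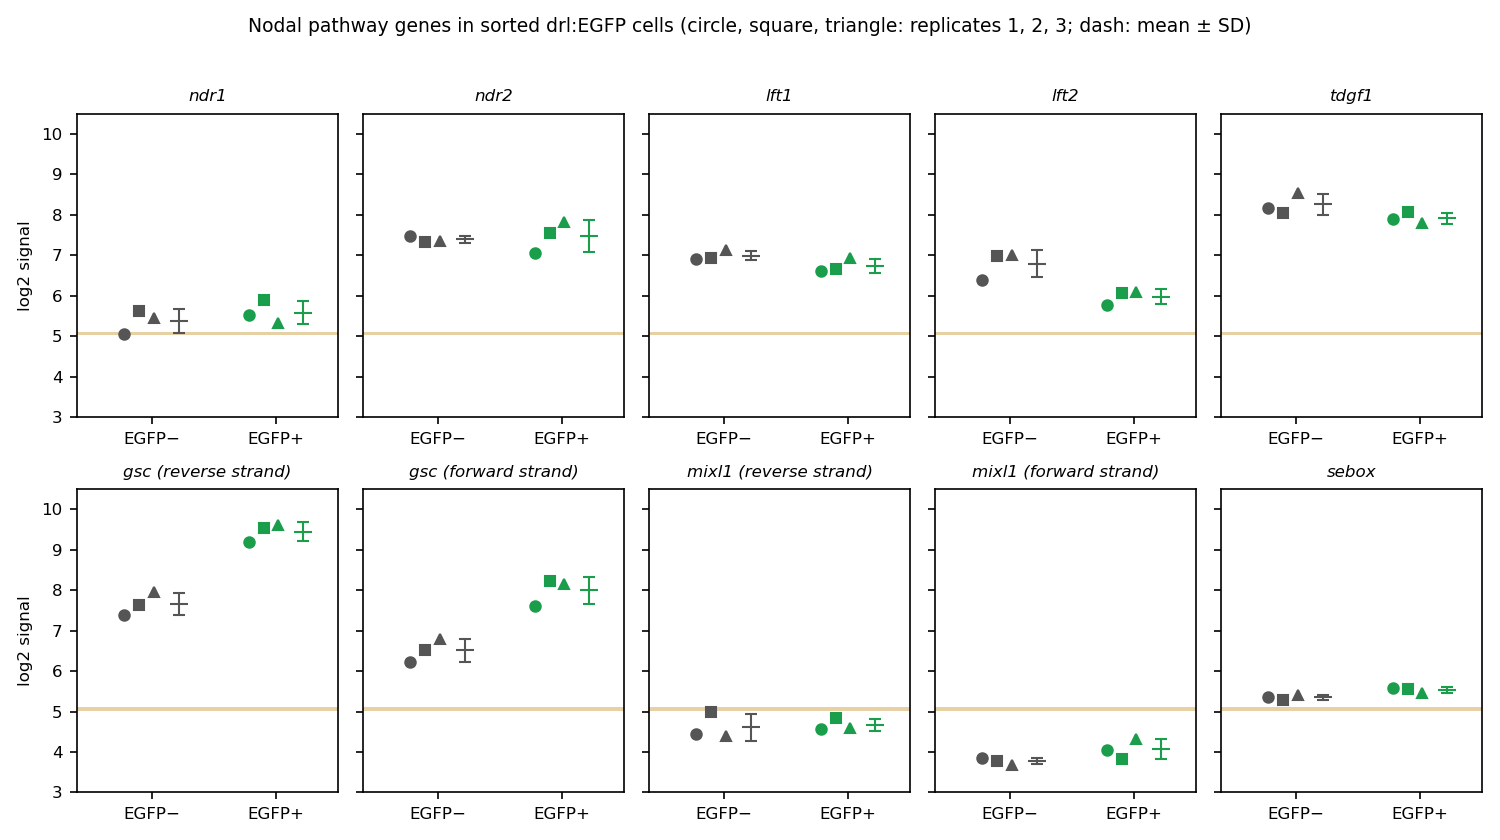
Log2 signal of the 10 transcript clusters of the 8 genes in each array (y axis) for EGFP-negative (grey) and EGFP-positive (green) cells. Circles, squares and triangles are replicates 1, 2 and 3, the dash with bars is the mean ± SD of 3 arrays, and the band marks the array medians of 5.02 to 5.10. Both *gsc* clusters stand higher in all 3 EGFP-positive arrays, *lft2* stands lower in all 3, and both *mixl1* clusters lie below the band.

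Of the ligands, *ndr1* (squint), which patterns the margin at a distance, lies on chromosome 21 from 19838661 to 19841105 on the forward strand of Zv9, the build of the files. Its log2 signal was 5.05, 5.63 and 5.44 in EGFP-negative arrays 1 to 3 and 5.51, 5.88 and 5.33 in EGFP-positive arrays 1 to 3. The fractions overlapped, and all 6 values lay within 1 log2 unit of the array medians. The log2 difference was 0.20 (95% interval −0.26 to 0.66, limma adjusted p = 0.71). The second ligand, *ndr2* (cyclops), which acts over a shorter range and is needed for the ventral brain midline, lies on chromosome 12 from 49428047 to 49436463 on the forward strand. Its signal was 7.48, 7.33 and 7.36 in EGFP-negative and 7.06, 7.54 and 7.83 in EGFP-positive arrays. EGFP-positive array 1 was the lowest of the 6 and array 3 the highest, so that the SD was 0.39 over the EGFP-positive arrays and 0.08 over the others. The difference of 0.09 had an interval of −0.36 to 0.53 (limma adjusted p = 0.89), and its sign turned without EGFP-positive array 3, at −0.09.

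The coreceptor *tdgf1*, the EGF-CFC protein without which zebrafish cells do not respond to Nodal, is on chromosome 10 from 1983898 to 1990349 on the reverse strand. The 3 EGFP-negative arrays read 8.18, 8.05 and 8.55, and the 3 EGFP-positive arrays 7.90, 8.06 and 7.79. EGFP-positive arrays 1 and 3 lay below all EGFP-negative ones and array 2 lay within their range. The log2 difference was −0.34 (95% interval −0.69 to 0.01, limma adjusted p = 0.36).

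The Lefty proteins are secreted inhibitors that bind Nodal and its coreceptor and are themselves induced by the pathway. The cluster of *lft2* is on chromosome 17 from 8148230 to 8152971 on the reverse strand and holds 15 probes. Its signal was 6.40, 6.98 and 7.00 in EGFP-negative arrays and 5.77, 6.07 and 6.09 in EGFP-positive arrays, with means of 6.79 ± 0.34 and 5.98 ± 0.18 (SD, n = 3). All EGFP-positive arrays lay below all EGFP-negative arrays, which held for 8.49% of all clusters. For scale, the medians of EGFP-positive arrays 1 to 3 were 5.06, 5.10 and 5.06, so the EGFP-positive signal of *lft2* was low. The log2 difference of −0.82 ± 0.18 (SE), or 1.76-fold lower, passed the threshold in limma with an adjusted p of 0.073. This call was lost in 5 of 6 fits that left out an array. Leaving out EGFP-negative array 2 or 3 gave an adjusted p of 0.208 or 0.201, and leaving out EGFP-positive array 1, 2 or 3 gave 0.212, 0.166 or 0.128. Without EGFP-negative array 1 it was 0.0176, and in all 6 of these fits the difference stayed between −1.01 and −0.71. The call is also absent at a limma adjusted p under 0.05.

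The other inhibitor, *lft1*, is on chromosome 20 from 35098589 to 35100995 on the reverse strand. Its signal was 6.91, 6.93 and 7.12 in EGFP-negative and 6.60, 6.66 and 6.92 in EGFP-positive arrays. The fractions overlapped only through EGFP-positive array 3, which lay just above EGFP-negative array 1. The log2 difference was −0.26 (95% interval −0.53 to 0.02, limma adjusted p = 0.37). Whether *lft2* differed more than *lft1* was asked within each array. The *lft2* minus *lft1* signal averaged −0.19 ± 0.29 in EGFP-negative and −0.75 ± 0.13 in EGFP-positive cells (SD, n = 3). The change of −0.56 gave p = 0.1 in an exact permutation test, two-sided, which is the smallest value possible, and 0.2 after adjustment over the 4 pairs compared in this way. In the same test the *ndr2* minus *ndr1* signal changed by −0.11 (exact p = 0.7).

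Among the targets, *gsc* (goosecoid) encodes a homeodomain repressor of the organizer and prechordal plate. Its main cluster spans chromosome 17 from 19173168 to 19175674 on the reverse strand with 26 probes. The signal was 7.40, 7.63 and 7.94 in EGFP-negative arrays and 9.18, 9.55 and 9.61 in EGFP-positive arrays. The lowest EGFP-positive array lay well above the highest EGFP-negative array. The difference of 1.79 ± 0.17 (SE, 95% interval 1.38 to 2.20), or 3.46-fold, had a limma adjusted p of 0.0024. It ran from 1.66 to 1.93 when single arrays were left out, with limma adjusted p from 0.0060 to 0.0156.

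A second *gsc* cluster with 23 probes covers 118 bp on the forward strand, from 19173517 to 19173634, inside the span of the first. It read 6.22, 6.52 and 6.80 in EGFP-negative arrays and 7.61, 8.22 and 8.15 in EGFP-positive arrays, again without overlap. Its difference was 1.48 ± 0.21 (SE), or 2.80-fold (limma adjusted p = 0.011). The files name both clusters *gsc*, and whether the forward-strand probes detect a transcript of their own was not tested. The reverse minus forward signal rose from 1.15 ± 0.03 to 1.45 ± 0.12 (SD, n = 3), a change of 0.31 with an exact p of 0.1 and 0.2 after adjustment over the 4 pairs. Since both clusters stand for 1 gene, they are not separate evidence for it.

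Among EGFP-negative arrays *gsc* was highest in array 3, as were the marker sums of endoderm (818, 855 and 1251 in arrays 1 to 3), prechordal plate and hatching gland (2901, 2907 and 3518), lateral plate mesoderm (447, 361 and 565), germ cells (321, 338 and 459) and, by a small margin, notochord (2854, 2674 and 2863). The sums of neural plate and epidermis were highest in array 1. Among EGFP-positive arrays the main *gsc* cluster was again highest in array 3, where the sums of all these tissues except lateral plate mesoderm (7183, 6107 and 5484) were also at their highest. These are orders of 3 arrays in each fraction, shared by several tissues, and are given as a description. The defining hatching gland gene *he1.1*, a hatching enzyme, read between 2.67 and 2.86 in EGFP-negative and between 5.09 and 5.36 in EGFP-positive arrays, the latter within 1 log2 unit of the array medians. The part of these tissues in the *gsc* difference was not tested.

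The Mix-type homeobox gene *mixl1*, which acts with Nodal in endoderm formation, is represented by 2 clusters on chromosome 20. The cluster at 43746930 to 43755623 on the reverse strand read 4.44, 4.98 and 4.40 in EGFP-negative and 4.58, 4.84 and 4.58 in EGFP-positive arrays. The cluster at 44305599 to 44314157 on the forward strand read 3.86, 3.78 and 3.69 against 4.05, 3.83 and 4.33. Every one of these values lay below the median of its array and the fractions overlapped at both clusters. The log2 differences were 0.06 (95% interval −0.35 to 0.47) and 0.29 (−0.03 to 0.61), with limma adjusted p of 0.92 and 0.40. Each cluster lies next to a *lin9* cluster on Zv9, whereas the RefSeq gene table of a later assembly (GRCz12tu) lists 1 *mixl1* gene beside *lin9*, so how the 2 clusters relate is uncertain.

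The last target, *sebox* (mezzo), is a homeobox gene induced by Nodal in mesendoderm, on chromosome 5 from 70368137 to 70378675 on the forward strand. It read 5.36, 5.28 and 5.41 in EGFP-negative and 5.59, 5.55 and 5.46 in EGFP-positive arrays. The EGFP-positive arrays were all higher, by a margin of less than 0.1 between the nearest arrays. The difference of 0.18 (95% interval −0.02 to 0.38) did not pass in limma (adjusted p = 0.39). With both *gsc* clusters this made 3 of 10 clusters in which EGFP-positive arrays all lay above EGFP-negative ones, which held for 11.7% of all clusters. An exact permutation test gave *gsc*, *lft2* and *sebox* the same p of 0.1, so that it does not order them.

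The rest of the signalling machinery was taken from a list of 33 further pathway genes, of which 25 were measured. Of these, 7 were higher, none was lower and 18 did not pass, where 4.12% of all genes were higher and 3.49% lower, with a median log2 difference of 0.19 beside −0.0048 over all genes. The genes that passed were the ligand *gdf3*, the receptor *acvr1ba*, the transducer *smad3b*, the nuclear partner *foxh1* and the inhibitors *dact2*, *trim33* and *smad7*. The list thus holds higher genes among both the parts that carry the signal and those that dampen it. It was chosen with earlier results of these data known, and all genes include those of low signal. Its counts are therefore a description and no test of the list.

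**Figure D2:**
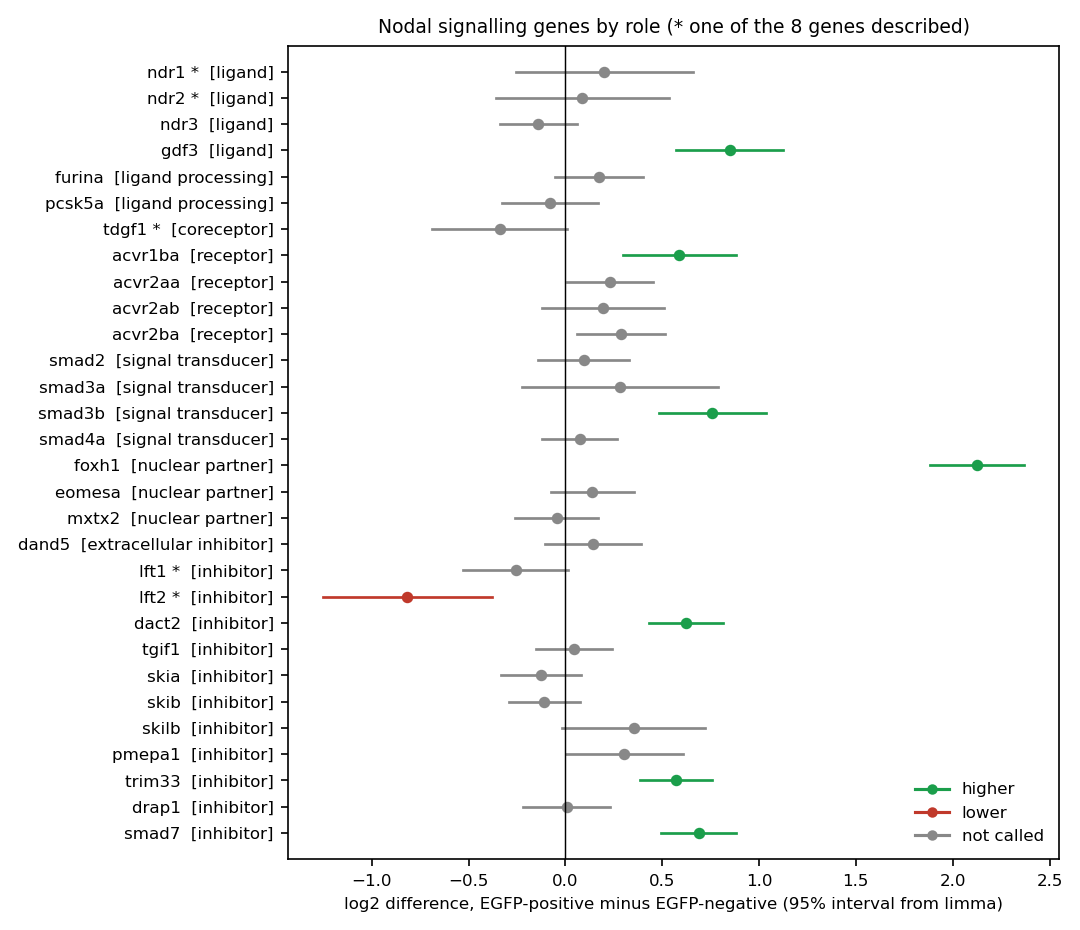
Log2 difference, EGFP-positive minus EGFP-negative (x axis), of each measured Nodal signalling gene ordered by role, with its 95% interval from limma on 3 arrays against 3. Green marks genes called higher, red lower and grey not called, and an asterisk marks the genes described above. *foxh1* stands apart at 2.12, and *lft2* is the only gene drawn here that was called lower.

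FoxH1 is the forkhead partner that brings phosphorylated Smad2 and Smad3 to DNA. Its gene *foxh1* read 6.88, 6.96 and 7.16 in EGFP-negative and 9.05, 9.21 and 9.12 in EGFP-positive arrays. The values of each fraction were tight and far apart. The difference of 2.12 ± 0.10 (SE), or 4.36-fold, had a limma adjusted p of 0.00023, and without single arrays it ran from 2.07 to 2.21. The other 2 nuclear partners measured, *eomesa* (0.14) and *mxtx2* (−0.04), did not pass.

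*gdf3* (Vg1), the maternal ligand that pairs with Nodal, read 7.73, 7.38 and 7.43 in EGFP-negative and 8.40, 8.42 and 8.27 in EGFP-positive arrays. It was higher without overlap, by 0.85 ± 0.12 (SE) or 1.80-fold (limma adjusted p = 0.011). The third Nodal gene *ndr3* (southpaw), the ligand of the left lateral plate in later somite stages, read 5.71, 5.85 and 5.70 against 5.59, 5.61 and 5.64. These values lay slightly above the array medians, and the difference of −0.14 (95% interval −0.34 to 0.06) did not pass in limma (adjusted p = 0.52), although the fractions did not overlap.

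Of the receptors, the type I receptor gene *acvr1ba* read 9.04, 8.66 and 8.71 in EGFP-negative and 9.29, 9.47 and 9.42 in EGFP-positive arrays. It was 1.50-fold higher, by 0.59 ± 0.12 (SE), with a limma adjusted p of 0.056. This call was lost with the replicate number as a block (adjusted p = 0.145) and in 5 of 6 fits that left out an array (adjusted p = 0.161 and 0.177 without EGFP-negative array 2 or 3, 0.112, 0.186 and 0.144 without EGFP-positive array 1, 2 or 3), and was kept without EGFP-negative array 1 (0.0251). Its other 2 clusters, on the opposite strand, had differences of 0.32, which did not pass, and 0.67, which did. The 3 measured type II receptor genes had differences of 0.23 (*acvr2aa*, adjusted p = 0.32), 0.19 (*acvr2ab*, adjusted p = 0.58) and 0.29 (*acvr2ba*, adjusted p = 0.22) in limma, and none passed.

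Among the transducers, *smad3b* was 1.69-fold higher, by 0.76 ± 0.12 (SE, limma adjusted p = 0.017). It read 7.86, 7.60 and 7.59 in EGFP-negative and 8.45, 8.59 and 8.30 in EGFP-positive arrays, without overlap. A second *smad3b* cluster, on the opposite strand and of low signal (means of 5.31 in EGFP-negative and 5.65 in EGFP-positive arrays), had a difference of 0.34. With the mean of both clusters the gene did not pass in limma (0.55, adjusted p = 0.123). *smad2* (0.10), *smad3a* (0.28) and *smad4a* (0.08) did not pass.

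Of 9 measured intracellular inhibitors 3 were higher. Smad7 is the inhibitory Smad that blocks the type I receptors, and its gene *smad7* read 7.35, 7.34 and 7.41 in EGFP-negative and 8.06, 8.12 and 7.98 in EGFP-positive arrays, a difference of 0.69 ± 0.08 (SE, limma adjusted p = 0.0057). *dact2*, whose product sends Nodal receptors to degradation, differed by 0.62 ± 0.08 (SE, limma adjusted p = 0.0082). *trim33*, which encodes a ubiquitin ligase for Smad4, differed by 0.57 ± 0.08 (SE, limma adjusted p = 0.0106). The fractions did not overlap at any of the 3 genes. The secreted inhibitor *dand5* (charon) had a difference of 0.14 and did not pass.

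Beyond *gsc*, *mixl1* and *sebox*, 38 genes that depend on Nodal signalling in the mesendoderm, or are expressed where it is active, were listed and 34 were measured. Of these, 16 were higher, 6 were lower and 12 did not pass, where 4.12% of all genes were higher and 3.49% lower. This list was also chosen with earlier results of these data known, and all genes include those of low signal. The counts are therefore a description and no test of the list. The median log2 difference was 0.37, beside −0.0048 over all genes. By the labels of the list, 3 of the 4 largest differences belonged to endoderm genes. Of the 4 smallest, 3 belonged to genes listed under the organizer or axial mesoderm.

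**Figure D3:**
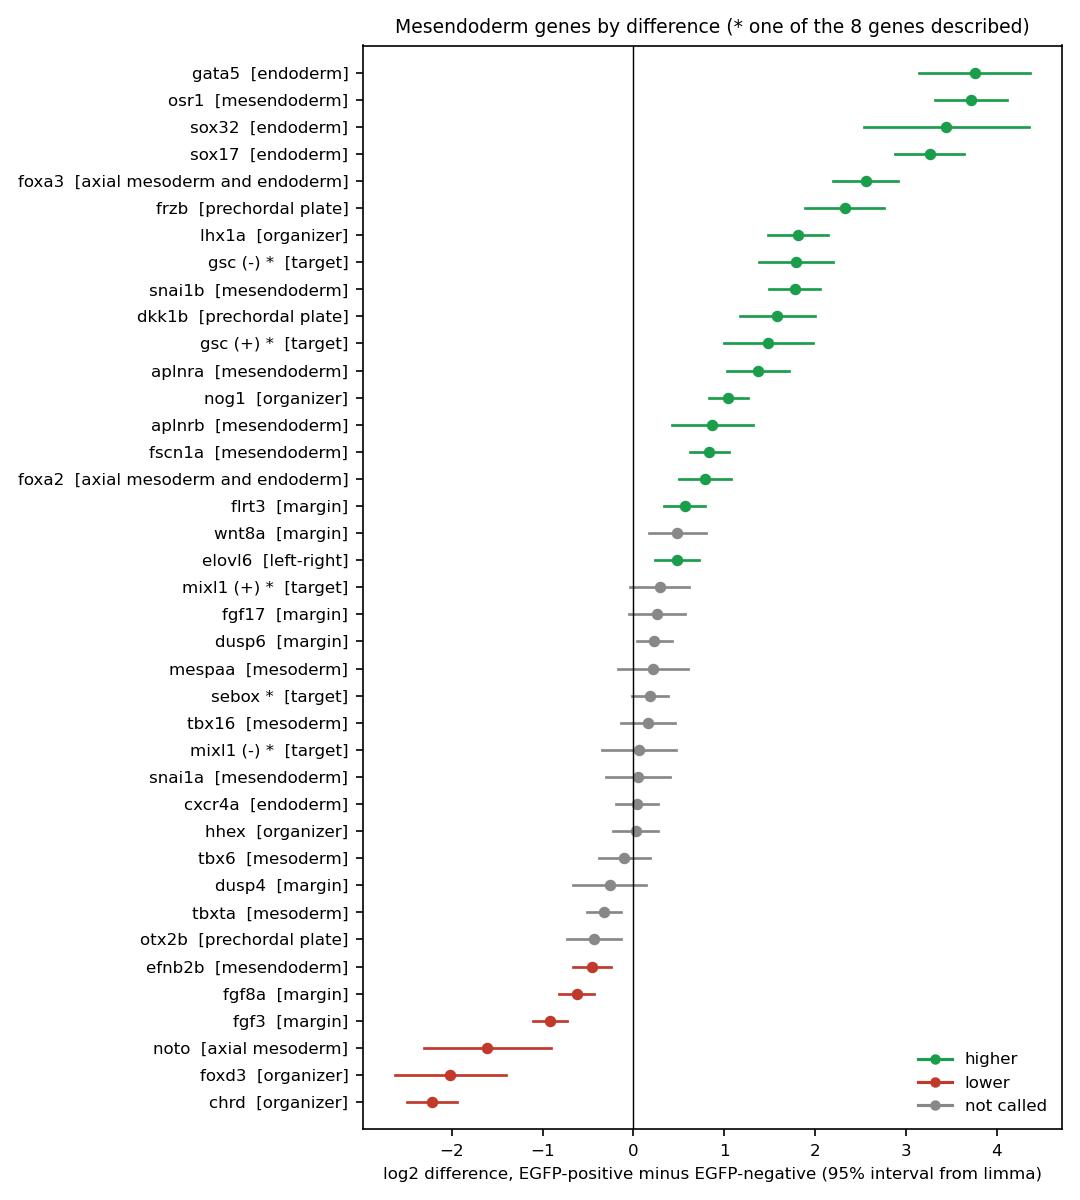
Log2 difference, EGFP-positive minus EGFP-negative (x axis), of each measured mesendoderm gene in order of size, with its 95% interval from limma on 3 arrays against 3. Signs after *gsc* and *mixl1* give the strand of the cluster, and an asterisk marks the genes described above. *gata5* stands highest at 3.76 and *chrd* lowest at −2.22, with *gsc* among the higher genes and *mixl1* and *sebox* among those not called.

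The 4 largest differences belonged to *gata5*, *osr1*, *sox32* and *sox17*. *gata5*, a zinc finger gene of endoderm and heart, read 7.11, 6.86 and 7.92 in EGFP-negative and 11.2, 11.0 and 11.0 in EGFP-positive arrays, a 13.5-fold difference (limma adjusted p = 0.00067). *sox32*, the inducer of endoderm fate, read 6.24, 6.55 and 7.65 against 9.78, 10.3 and 10.6, a 10.9-fold difference (limma adjusted p = 0.0045). Its targets include *sox17*, which was 9.59-fold higher (limma adjusted p = 0.00023). *osr1*, a zinc finger gene of the lateral plate and kidney, was 13.2-fold higher (limma adjusted p = 0.00020). EGFP-negative array 3 had the highest of the EGFP-negative values at all 4 genes, as it did at *gsc*. By the tissue assigned in the list, 3 of 4 measured endoderm genes, 5 of 7 mesendoderm genes and 2 of 3 prechordal plate genes were higher. So were 2 of 2 genes of axial mesoderm and endoderm. The endoderm gene that did not pass was *cxcr4a*, with a difference of 0.04 (limma adjusted p = 0.89). None of the 4 measured mesoderm genes of the list passed. However, these were *tbxta*, *tbx16*, *tbx6* and *mespaa*, and *osr1*, a lateral plate marker above, was counted as mesendoderm. In the other direction, 1 mesendoderm gene was lower, and of 7 measured margin genes 1 was higher and 2 were lower. These lists share *gata5*, *osr1*, *sox32*, *sox17* and others with the marker lists, so they repeat part of that check.

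The 4 smallest differences belonged to *chrd*, *foxd3*, *noto* and *fgf3*. *chrd* (chordin), the BMP antagonist of the organizer, read 10.6, 10.6 and 10.7 in EGFP-negative and 8.20, 8.46 and 8.59 in EGFP-positive arrays, a difference of −2.22 ± 0.12 (SE, limma adjusted p = 0.00025). *foxd3*, a forkhead gene of the organizer and later of the neural crest, differed by −2.02 ± 0.26 (SE, limma adjusted p = 0.0078). *noto* (floating head), needed for the notochord, read 9.15, 8.98 and 9.22 against 6.80, 7.67 and 8.06. The EGFP-positive arrays of *noto* were spread widely but all lay below the others. Its difference of −1.61 ± 0.30 (SE) passed in limma with an adjusted p of 0.034, but not without EGFP-negative array 1, 2 or 3 (0.101, 0.0957 and 0.118) or EGFP-positive array 2 (0.0923). *fgf3*, a growth factor gene of the margin and the hindbrain, differed by −0.92 ± 0.08 (SE, limma adjusted p = 0.0016).

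Genes listed under the organizer moved in both directions. Of 5 measured, 2 were higher, *lhx1a* (1.81) and *nog1* (1.05), and 2 lower, *chrd* and *foxd3*. A second *lhx1a* cluster, on the opposite strand, had a difference of 0.33 and did not pass (limma adjusted p = 0.30). A second *nog1* cluster passed with a difference of 1.53. The label is that of the list and names a tissue of the gastrula, whereas the cells were taken at the 2 somite stage. Which cells gave the signal of these genes was not tested. The prechordal plate genes *frzb* (2.33) and *dkk1b* (1.59) were higher, as was *gsc*, while *chrd* and *noto* were lower. Genes of other tissues, such as *sox17* (3.26) and *osr1* (3.72), were higher as well, so this direction was not particular to prechordal plate genes. Whether the *gsc* signal came from prechordal plate was not tested. The third prechordal plate gene measured, *otx2b*, went the other way with a difference of −0.43. It did not pass (limma adjusted p = 0.158), although its EGFP-positive arrays all lay below the others. *frzb* and *dkk1b* encode secreted Wnt inhibitors. These genes, *lhx1a*, *nog1* and *otx2b* were named after their values were seen.

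The genes most like the called members across the arrays were sought among the 17552 genes at or above the median signal. Over the 6 arrays *rdh10a*, a retinol dehydrogenase gene, had the pattern closest to the main *gsc* cluster (Pearson's r = 0.9997) and a difference of 1.94. It was followed by the receptor phosphatase gene *ptprf* and by *LOC100001302* (r = 0.997 for both), with differences of 0.32 and 0.35. For the forward-strand cluster the closest were *ptprf* (r = 0.998), *mylipa* (0.995) and *calr* (0.994). For *lft2* they were *zgc:173816* (0.999), *zgc:194355* (0.993) and *LOC568201* (0.993), with differences of −0.07, −0.44 and −0.29. These are descriptions over 6 points that fall into 2 fractions. For the main *gsc* cluster, 371 genes had r above 0.95, so that a high r sets few genes apart.

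**Figure D4:**
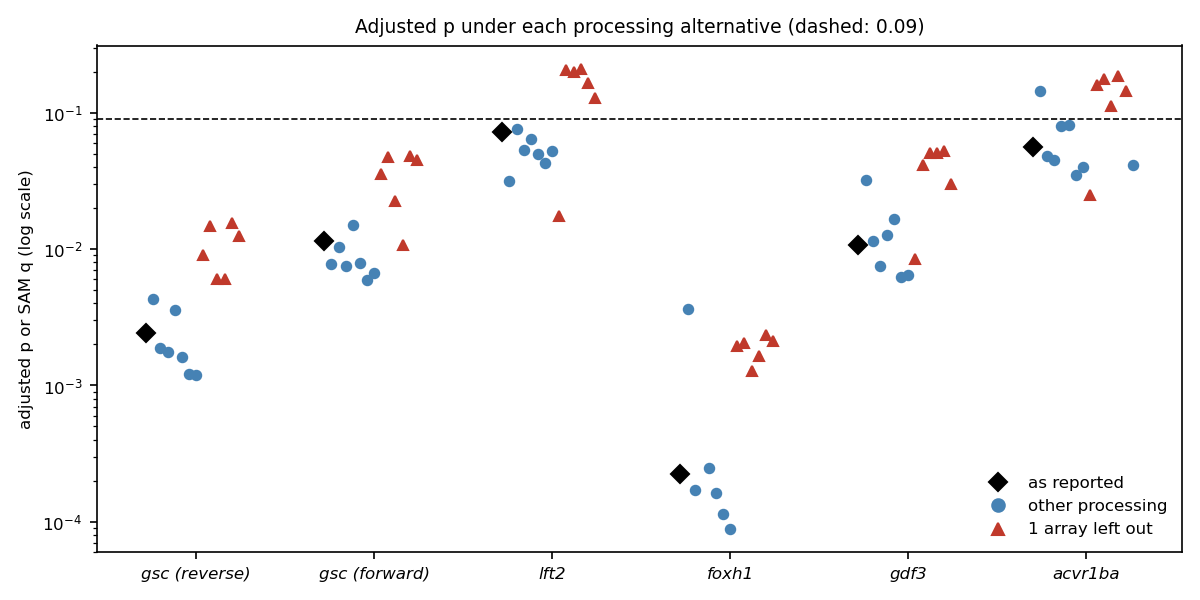
Adjusted p from limma, or the q-value of the SAM statistic (y axis, log scale), of both *gsc* clusters, *lft2*, *foxh1*, *gdf3* and *acvr1ba* as reported (black), under other processing (blue) and with 1 array left out (red). The dashed line is the threshold of 0.09, and the SAM q-value of 0 for *foxh1* cannot be drawn on this axis. Points of *lft2* and *acvr1ba* lie on both sides of the line, and the drawn points of the other 4 clusters lie below it.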

How the data were processed

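The deposited log2 values were made by the authors in ExpressionConsole, which corrected the background by MAS and normalized the arrays by RMA to 1 value per gene-level cluster, and the submitters' notes name RMA as well. The number of probes of each cluster, its symbol, strand and position on Zv9 are other annotation columns of the deposited table. That table's columns of the authors' own comparison (log2 difference, statistic, log odds and p-values) were not used.

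The 6 arrays were fitted as deposited with limma 3.58.1 in R 4.3.3 (lmFit and eBayes, two-sided, 75212 clusters, no block), and a cluster was called where its p, adjusted by Benjamini and Hochberg's method, was under 0.09. The methods name siggenes, in place of which a SAM statistic over 20 label assignments was computed as an alternative. Of the clusters that carry a listed gene's symbol and no other, the one with the highest mean signal stood for the gene. Older symbols were matched through RefSeq's gene table of a later assembly, used for names and neighbours only. Summaries and figures used Python 3.11.15, pandas 2.3.3, numpy 2.4.6, scipy 1.17.1 and matplotlib 3.10.9. The procedure was tested on simulated data.

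The 8 genes and the lists were chosen with earlier results of these data known. Named are all clusters of the 8 genes, pathway genes past the threshold with all listed ligands and receptors, the 4 largest and 4 smallest differences of the target list, and the 3 genes most like each called cluster by Pearson's r. Other names (*eomesa*, *mxtx2*, *smad2*, *smad3a*, *smad4a*, *dand5*, *lhx1a*, *nog1*, *frzb*, *dkk1b*, *otx2b*, *he1.1*) were added after their values were seen. So were the markers *ctslb*, *klf17*, *foxa2* and *foxa3*, the endoderm gene *cxcr4a* and the mesoderm genes *tbxta*, *tbx16*, *tbx6* and *mespaa*. A gene of the target list is not reported here and was left out of its counts after they had been computed. As alternatives, each array was left out in turn, the threshold was set to 0.05, the replicate number entered as a block, the prior variance was given an intensity trend, clusters of low signal were filtered out, and the arrays were quantile normalized again or centred on their medians. The clusters of a gene were also averaged, and values of this alternative were taken for the lists but not for the 8 genes. Counting clusters with identical values once was added after the data were seen. It left 65940 clusters, of which 2265 were higher and 1508 lower. The precision is limited by the number of arrays.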

Additional observations from a re-analysis of the deposited data

How the results depend on the processing

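The 2 higher clusters of *gsc* were called under every alternative taken for them, which leaves out the averaging of a gene's clusters. The lower call of *lft2* was lost at an adjusted p under 0.05, which left 0 lower clusters among the 10, and leaving out single arrays left 0 to 1. Of 410 values of single genes or clusters under alternatives, 387 kept direction and call, 18 kept the direction and lost the call, and 5 turned sign. Those 5 belong to clusters that were not called. The block, the intensity trend, the SAM statistic, the filter, counting identical clusters once and the threshold of 0.05 leave the difference itself unchanged. Direction could therefore not turn under them. For clusters that were not called, keeping the call means only that they stayed uncalled. *ndr2* turned to −0.00064 after quantile normalization again and ran from −0.089 to 0.297 without single arrays, and the reverse-strand *mixl1* cluster ran from −0.045 to 0.247. Without single arrays, 6 to 7 pathway genes were higher, and 13 to 15 target genes were higher and 4 to 6 lower. Under the other alternatives, 6 to 7 pathway genes were higher, and 14 to 17 target genes were higher and 5 to 7 lower. The causes were not tested.

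Each collection was sorted into both fractions, but the labels do not say whether a replicate number marks the same collection in both. Deviations from the fraction means correlated at −0.03, 0.04 and 0.09 for same-numbered arrays and from −0.10 to 0.05 for different-numbered ones. Values this small do not decide the pairing. The main fit did not take the numbers as pairs, and the block was run as an alternative. The replicate block gave 1745 higher and 1074 lower clusters over the whole array, against 2228 and 1384 without it. With the block *lft2* passed (limma adjusted p = 0.032), 2 of the 10 clusters were higher and 1 lower, and *acvr1ba* was lost. Counts over all clusters fell by more than 1.5 times without EGFP-negative array 2 (1317 higher), EGFP-negative array 3 (1462 higher), EGFP-positive array 1 (1341 higher, 874 lower) and EGFP-positive array 2 (1275 higher, 922 lower). Low signals near the array medians, as of *ndr1*, *mixl1* and *sebox*, and of *lft2* in EGFP-positive cells, were not told apart from background.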
